A study of Mus musculus with 24 samples.

Results

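The miRNAs described here are those of exosome-enriched fractions (EEFs) that were precipitated with a kit from the mouse hippocampus 24 h after an injection of kainic acid (KA) into the amygdala. They were compared with the same fractions of mice injected with PBS. Members were all miRNAs with at least 1 read in 3 of the 6 libraries, which left out 303 of the 842 with a read in these libraries (1073 in the whole series of 24 libraries). Those 303 had at most 5 reads each over the 6 libraries, and the miRNAs kept held 99.97% of the reads. The mice were male and aged 6 to 9 weeks, of the strain C57BL/6 by the labels and of its substrain C57BL/6OlaHsd by the study's methods. KA mice received 0.3 μg of KA in 0.2 μl into the basolateral nucleus of the right amygdala, control mice received PBS through the same type of cannula, and midazolam at 8 mg/kg was given after 40 min to curtail seizures. Brains were cleared of blood by perfusion with PBS, and each sample pooled 4 hippocampi, so that no library stands for a single mouse. For the kit, a filtered and low-speed-centrifuged suspension of the tissue was mixed with ExoQuick precipitation solution, and the pellet was treated with RNase A before RNA was extracted. Ultracentrifuged EEFs (UC) and kit EEFs taken at 2 weeks, with 3 libraries in each group, are used below to set the kit difference at 24 h beside them. The kit libraries at 2 weeks also entered the fit of that difference, in its scaling and its estimate of spread.

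miRNAs are short RNAs that guide Argonaute proteins to messenger RNAs, mostly through bases 2 to 8 of their 5′ end, the seed. One hairpin precursor yields an arm from its 5′ side (5p) and one from its 3′ side (3p), and of these usually one is far more abundant. Cells release some of their miRNAs in vesicles and in complexes with protein, and precipitation brings down both. Status epilepticus, the prolonged seizure that KA induces, kills hippocampal neurons and activates glia. Among miRNAs linked to these processes, miR-21 rises in many injured tissues, miR-132 and miR-212 are induced by neuronal activity, miR-146a dampens inflammatory signalling, and miR-124 and miR-9 mark neurons.

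Of the 24 miRNAs past the threshold below, 22 had a mature sequence in RefSeq (GRCm38.p6), and these had 21 different seeds. The mature sequences of 9 of them are shown because the comparisons below turn on them, with the seed in capitals.
miR-21a-5p: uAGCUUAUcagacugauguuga
miR-21c: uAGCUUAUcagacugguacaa
miR-21a-3p: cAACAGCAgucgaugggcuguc
miR-15a-5p: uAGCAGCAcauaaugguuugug
miR-107-3p: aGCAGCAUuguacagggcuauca
miR-184-3p: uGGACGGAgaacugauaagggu
miR-10b-5p: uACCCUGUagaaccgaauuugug
miR-22-3p: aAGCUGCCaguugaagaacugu
miR-27b-3p: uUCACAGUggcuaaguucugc
The seed AGCUUAU of miR-21a-5p and miR-21c was the only one that 2 of them shared. The seeds of miR-15a-5p and miR-107-3p hold the same 6 bases shifted by 1 position.

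The total count per library was 290175, 154884 and 259098 in controls 1 to 3 and 345880, 389402 and 273380 in KA libraries 1 to 3. Control 2, the shallowest, lay apart from the other 5 on the first principal component (14.6 against -8.33 to 0.855, 35.4% of the variance), and results that rest on it are given without it. Of the markers expected in this tissue, the neuronal miR-9-5p was at 33760 ± 4505 CPM (reads scaled to a common library total with TMM factors, mean ± SD, n = 3) in controls and the neuronal miR-124-3p at 4468 ± 1170. The summed level of the oligodendrocyte list was 2301 to 2363 CPM in controls and 2532 to 2668 in KA libraries. Markers of red blood cells, which perfusion should remove, were listed in both groups. Their sum was 677.2 to 859.8 CPM in controls and 539.4 to 736.9 in KA libraries, of which miR-486b-5p made up most, and the red cell miRNA miR-451a was at 13.3 ± 20.0 and 37.9 ± 21.1 CPM. Of the miR-486b-5p reads, 87.61 ± 4.28% in controls and 87.65 ± 4.93% in KA libraries had an added or changed 3′ end. The part of red blood cells in any difference was not tested.

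At 24 h, 24 miRNAs were called at an unadjusted p under 0.05 in edgeR's quasi-likelihood test (4.45% of those tested) and 515 were not. Of the 24, 20 were higher (3.71%) and 4 lower (0.742%) after KA, and the threshold itself is 5%. After Benjamini-Hochberg adjustment edgeR left none (0%), nor did DESeq2 or limma-voom, which called 17 and 28 before it, and the adjusted p-values of the 24 were between 0.708 and 0.916. The calls below are therefore differences at the unadjusted threshold only. The groups did not overlap, with all KA libraries above or all below the controls, in 50 miRNAs (9.28%), 31 above (5.75%) and 19 below (3.53%). Of the 24 miRNAs called, 16 did not overlap. The 24 were picked by p-value on the same libraries, which favours separation, so this count is no separate support. For miR-1264-3p, miR-299a-5p and miR-6928-5p, with reads in 3 libraries of one group only, the filter on low counts fixed it. The 50 also hold uncalled miRNAs of this kind, such as miR-486b-3p, at 0 CPM in controls and 4.29 ± 2.87 CPM after KA. Without control 2, 16 of the 24 no longer passed and 12 miRNAs were called. Calls rested on other libraries as well. Without KA library 2, 11 of the 24 still passed, and without each other library 14 to 16 did. The median log2 fold change of all miRNAs was 0.05, and 53.2% of them were above 0.

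The excess of higher miRNAs depended on the scaling and on other settings. With RLE size factors 26 miRNAs were called, of which 61.5% were higher, against 83.3% with TMM, and with library size only it was 65.4% of 26. Scaling to a pair of reference miRNAs, miR-25-3p with miR-92b-3p, called 44 miRNAs of which 9.09% were higher, and moved the median of all miRNAs to -0.39. Only 8 of the 24 were among those 44. With TMM after thinning the 6 libraries to the same total, 57.1% of 21 were higher. In the libraries, miR-25-3p was at 286.5 ± 83.93 CPM in controls and 438.8 ± 102.5 after KA (log2 fold change 0.61 ± 0.36 SE), with no overlap between groups, and miR-92b-3p at 511 ± 198 and 616 ± 11.0 CPM. Neither reference miRNA was called, and the shallow control 2 held 32 and 72 reads of them.

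**Figure D1:**
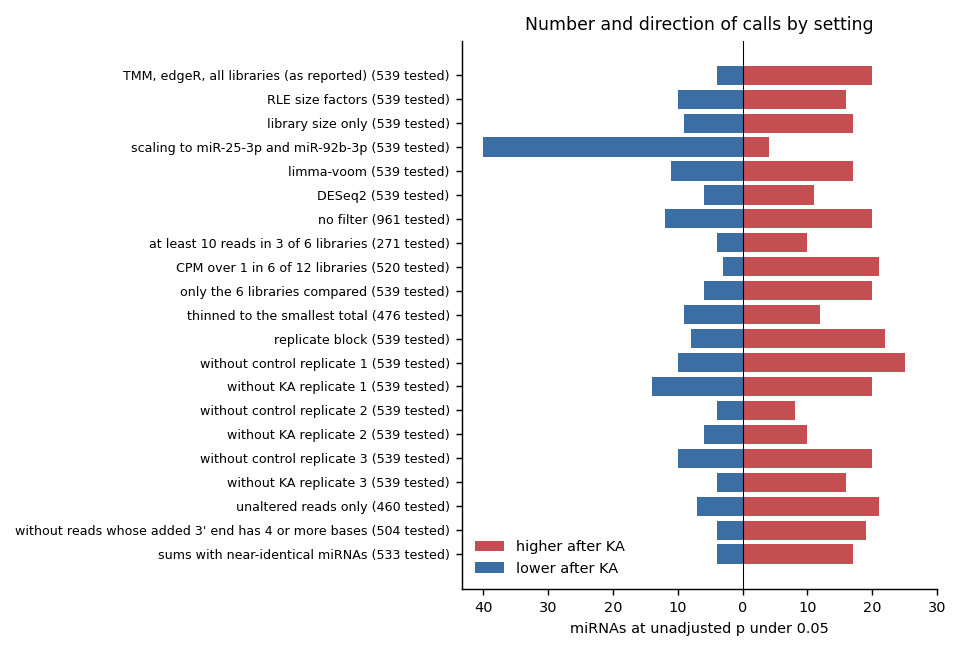
Number of miRNAs at an unadjusted p under 0.05 that were higher (red, to the right) or lower (blue, to the left) after KA at 24 h in kit EEFs, by setting. As reported 20 were higher and 4 lower, scaling to the reference miRNAs gave 4 and 40, and leaving out control 2 gave 8 and 4.

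The 2 arms of the miR-21a hairpin were both higher after KA. The hairpin lies at chr11:86584067-86584158 (minus strand, GRCm38.p6), in an exon of Vmp1, a gene for a membrane protein of autophagy. miR-21a-5p was at 5041, 2544 and 4196 CPM in controls and 6963, 6180 and 8109 CPM in KA libraries. All KA libraries lay above all controls, and control 2 was the lowest. Its log2 fold change was 0.85 ± 0.30 (SE; adjusted p = 0.708, edgeR), and it was lost without control 2 and with the reference scaling. The minor arm, miR-21a-3p, was read 24, 6 and 15 times in controls and 25, 54 and 58 times in KA libraries. On the CPM scale KA library 1 (68.3) lay below control 1 (79.3), so the groups overlapped. Its log2 fold change was 1.28 ± 0.47, and it was lost without KA library 3, with the reference scaling and after thinning.

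miR-21c, whose seed equals that of miR-21a-5p, had 38 reads over the 6 libraries, 3, 1 and 0 in controls and 6, 11 and 17 in KA libraries (log2 fold change 2.64 ± 0.84). None of the 38 reads had the annotated end. All 38 carried another 3′ end from base 17 of 21 onwards, most often AGAGGGAGC (19 reads). The capitals below mark where the mature sequences of miR-21a-5p and miR-21c differ.
miR-21a-5p: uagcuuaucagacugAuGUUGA
miR-21c: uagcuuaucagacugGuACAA
The first 15 bases are the same in both, and of the bases that tell them apart (A16G, G18A, U19C, U20A and G21A, counted from the 5′ end with miR-21a-5p first) the 38 reads kept only position 16 of miR-21c. Reads named miR-21c and ends of miR-21a-5p reads therefore cannot be told apart beyond 1 base. The sum of both had a log2 fold change of 0.88 ± 0.31 (adjusted p = 0.934, edgeR), and miR-21a-5p made up 99.2 to 100% of it.

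miR-15a-5p, a member of the miR-15/16 family that restrains the cell cycle and cell survival genes such as Bcl2, had the lowest p-value. It was at 182, 166 and 197 CPM in controls and 328, 442 and 471 CPM in KA libraries. The controls were close to each other and every KA library lay above them. The log2 fold change was 1.18 ± 0.33 (adjusted p = 0.708, edgeR), and it stayed past the unadjusted threshold in all 6 fits that left out 1 library, although not with scaling to the reference miRNAs. None of the 6 other miRNAs with its seed was called. Their log2 fold changes were 0.97 (miR-15b-5p), 0.87 (miR-195b), 0.41 (miR-497a-5p), 0.31 (miR-195a-5p), 0.27 (miR-16-5p) and -0.07 (miR-322-5p). The most abundant, miR-16-5p, was at 2354 ± 228 CPM in controls and 2835 ± 336 after KA, with overlap.

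miR-107-3p was called higher and its near copy miR-103-3p was not called. Both come from introns of pantothenate kinase genes, that of miR-107 lying in an intron of Pank1 at chr19:34820687-34820773 (minus strand). miR-107-3p was at 1226, 1085 and 1511 CPM in controls and 1467, 1865 and 3331 CPM in KA libraries. KA library 1 lay below control 3, and KA library 3 was far above the rest. The log2 fold change was 0.80 ± 0.31 (adjusted p = 0.836, edgeR), whereas that of miR-103-3p was -0.51 ± 0.31 (adjusted p = 0.916). The call of miR-107-3p was lost with the reference scaling (0.33) and without control 1, control 2 or KA library 3 (0.39). The mature sequences differ in a single base, C22G with miR-107-3p first, marked in capitals.
miR-107-3p: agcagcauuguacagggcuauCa
miR-103-3p: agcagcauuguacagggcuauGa
That base is the next to last. miR-107-3p made up 32.4 ± 9.65% of the reads of the pair in controls (n = 3) and 52.2 ± 11.8% in KA libraries. These shares overlapped, as KA library 1 (39.2%) lay below control 3 (43%). The sum of the pair was 4030 ± 585 and 4220 ± 1130 CPM. The sum did not pass the threshold (log2 fold change 0.07 ± 0.27, adjusted p = 0.965, edgeR).

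miR-10b-5p, from an intron shared by annotated transcripts of Hoxd3 and Hoxd4 at chr2:74726070-74726137 (plus strand), was at 509, 101 and 215 CPM in controls and 647, 808 and 463 CPM in KA libraries. The groups overlapped, as KA library 3 lay below control 1, and control 2 rested on 17 reads. The log2 fold change was 1.20 ± 0.42, and the call was lost without control 2 (0.82), control 3 or KA library 2. Without control 1, the highest of the controls, it was 1.97. It differs from miR-10a-5p by A12U, miR-10b-5p first, in the middle of the sequence.
miR-10b-5p: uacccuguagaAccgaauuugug
miR-10a-5p: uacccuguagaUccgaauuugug
miR-10a-5p had a log2 fold change of 0.07 ± 0.45 and was not called. The share of miR-10b-5p in the pair was 46.4 ± 4.57% in controls and 65.3 ± 7.86% after KA, all KA libraries above the controls. The sum of the pair had a log2 fold change of 0.70 ± 0.42 and did not pass.

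miR-27b-3p and miR-23b-3p, which are processed from neighbouring hairpins of one transcript, were called in opposite directions. miR-27b-3p was at 26930, 14490 and 32860 CPM in controls and 29060, 50290 and 41350 CPM in KA libraries, with overlap, and its log2 fold change was 0.70 ± 0.34. That call lay at the threshold and was lost in 4 of the 6 fits that left out 1 library. Its hairpin lies at chr13:63300712-63300784 (plus strand), in an exon of 2010111I01Rik. Its near copy miR-27a-3p (963 reads over the 6 libraries) had the same log2 fold change, 0.70 ± 0.36, without passing the threshold. miR-23b-3p was lower, at 291, 943 and 533 CPM in controls and 355.1, 144.8 and 231.7 CPM in KA libraries. Control 1 lay below KA library 1, and control 2 was the highest of the 6. The log2 fold change was -1.26 ± 0.46, and it was lost without control 2 or KA library 2. miR-23a-3p had a log2 fold change of 0.27 ± 0.34. miR-23b-3p made up 76.0 ± 8.85% of the reads of both in controls and 54.1 ± 14.2% after KA, with 68.8% in both control 1 and KA library 1. The sum of miR-23b-3p and miR-23a-3p had a log2 fold change of -0.74 ± 0.35, which passed the unadjusted threshold. Of the miR-23b-3p reads, 49.1% had an added or changed 3′ end.

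**Figure D2:**
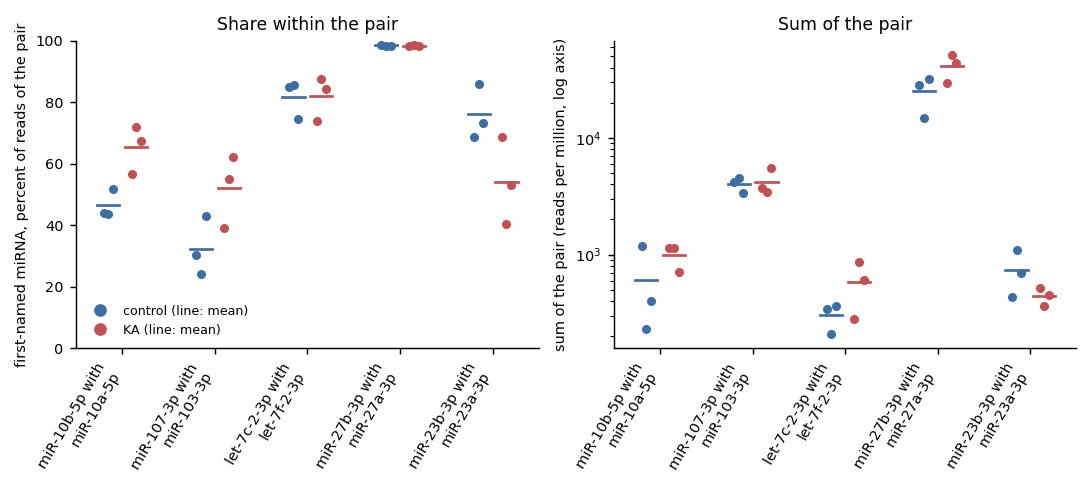
Left, the first-named miRNA as a percent of the reads of a pair of near-identical miRNAs, and right, the sum of the pair in CPM on a log axis, in the 3 control (blue) and 3 KA (red) kit libraries at 24 h (line, mean). The mean share of miR-107-3p was 32.4% in controls and 52.2% after KA, with overlap. The mean sum of miR-107-3p and miR-103-3p was 4030 and 4220 CPM, and the share of miR-27b-3p was 98.3 to 98.7%.

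miR-184-3p, a brain and eye miRNA from an intergenic hairpin at chr9:89802260-89802328 (minus strand), had the lowest p-value of the 4 lower miRNAs. It was read 30, 31 and 45 times in controls and 6, 27 and 19 times in KA libraries, which is 99.11, 183.8 and 161.1 CPM against 16.39, 68.61 and 72.17 CPM. All KA libraries lay below all controls. The log2 fold change was -1.49 ± 0.52 (adjusted p = 0.708, edgeR), and it passed the threshold in all 6 fits that left out 1 library. It did not pass once the 6 libraries were thinned to the same total of 154884 reads. Of its 158 reads, 48.7% had no change of sequence or end.

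miR-22-3p was the third most abundant miRNA, with 9.61% of the scaled reads, and comes from an exon of its non-coding host gene Mir22hg at chr11:75463716-75463810 (plus strand). It was at 93080, 50750 and 84050 CPM in controls and 121800, 117300 and 109300 CPM in KA libraries. All KA libraries lay above the controls, and control 2 was the lowest. Its log2 fold change was 0.61 ± 0.27 (adjusted p = 0.916, edgeR), which fell short of the threshold with the reference scaling (0.20), RLE factors, library size, DESeq2 and thinning, and without control 2 (0.39), KA library 1 or KA library 2. Of the 10 most abundant miRNAs, miR-22-3p and miR-27b-3p were the only ones called. The other 8 had log2 fold changes between -0.17 (miR-9-5p) and 0.62 (miR-434-3p). miR-181a-5p, the most abundant, was at 169900 ± 19980 CPM in controls and 155000 ± 29330 after KA, and miR-127-3p, the second, at 109900 ± 8090 and 113800 ± 9014.

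The other well-covered miRNAs that passed the threshold were all higher after KA. miR-9-3p, the minor arm of the neuronal miR-9, was at 707, 540 and 755 CPM in controls and 1136, 1176 and 923 CPM in KA libraries without overlap (log2 fold change 0.69 ± 0.28). The major arm did not follow it, as miR-9-5p had a log2 fold change of -0.17 ± 0.23. miR-369-3p and miR-376a-3p, from the imprinted cluster on chromosome 12, had log2 fold changes of 0.89 ± 0.38 and 0.85 ± 0.40, both without overlap. miR-376a-3p had 79.2% of its 293 reads with another 3′ end, and on reads without any change it did not pass (log2 fold change 0.66). miR-335-5p, from an intron of the imprinted gene Mest, had 0.86 ± 0.39, miR-873a-5p, from an intron of the neuronal gene Lingo2, 0.81 ± 0.35, and let-7c-2-3p, a minor let-7 arm, 0.95 ± 0.42, all 3 with overlap. Of let-7c-2-3p, 76.6% of 696 reads carried an added 3′ end, and on unaltered reads its log2 fold change was 0.67, which did not pass. These 6 miRNAs were each lost in at least 1 fit that left out a library, and all 6 without control 2.

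**Figure D3:**
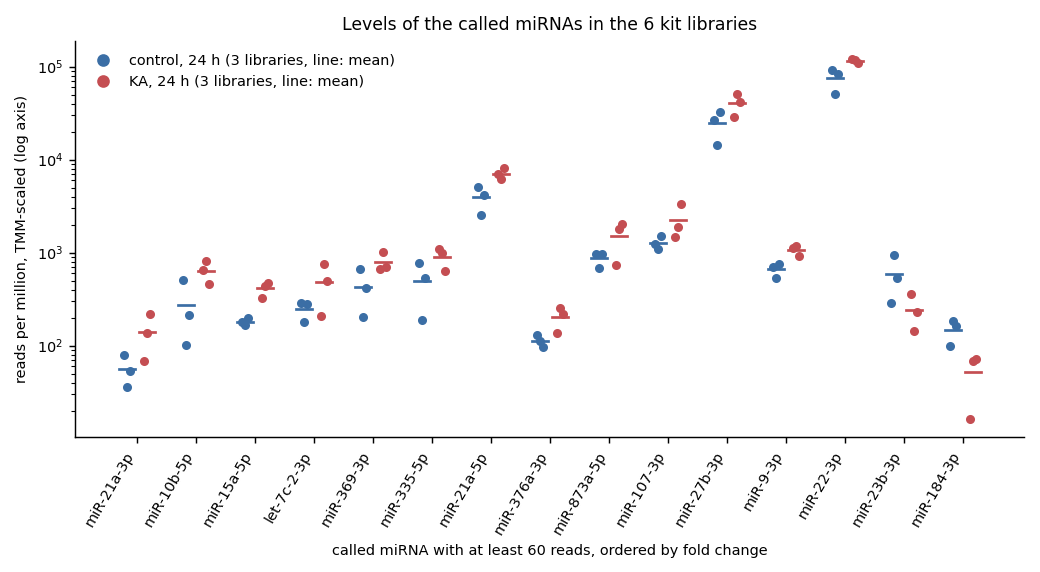
Level of the 15 called miRNAs with at least 60 reads in each of the 3 control (blue) and 3 KA (red) kit libraries at 24 h, in TMM-scaled CPM on a log axis, with lines at the means. In 7 of the 15 the groups did not overlap, such as miR-15a-5p at 166 to 197 CPM in controls and 328 to 471 CPM after KA. Of all miRNAs tested, 9.28% did not overlap, and the 15 were picked by p-value on these same libraries, which favours separation.

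The remaining 9 calls rested on fewer than 60 reads over the 6 libraries, so that single reads weigh heavily in them. Of these, miR-1264-3p, miR-299a-5p and miR-6928-5p were tested only because 1 group had reads in all its libraries. miR-429-3p, an epithelial miRNA of the miR-200 family, had 1, 1 and 3 reads in controls and 16, 8 and 6 in KA libraries (log2 fold change 2.06 ± 0.73), whereas miR-200b-3p, which has the same seed and lies within 10 kb, had a log2 fold change of -1.20 on 16 reads and was not called. miR-543-3p had 5 reads in controls and 24 in KA libraries. The ratio of KA to control was 12.6 for miR-7689-3p (18 reads against 1; exact 95% interval 1.98 to 524), 9.77 for miR-135b-5p (14 against 1; 1.49 to 413) and 4.54 for miR-191-3p (13 against 2; 1.03 to 41.4). These intervals cover counting error only. The major arm miR-191-5p, at 21050 ± 5084 CPM in controls and 16380 ± 3591 after KA, had a log2 fold change of -0.36. miR-1264-3p, one of the miRNAs hosted by the serotonin receptor gene Htr2c, had 0 of 704157 control reads and 6 of 1008662 KA reads. miR-299a-5p had 4 control reads and 0 KA reads. No fold was drawn from these reads, since the filter kept both miRNAs through 1 group only. miR-6928-5p, with 3 control reads and 0 KA reads, was at or under a floor of 3 counts over the group in both groups.

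**Figure D4:**
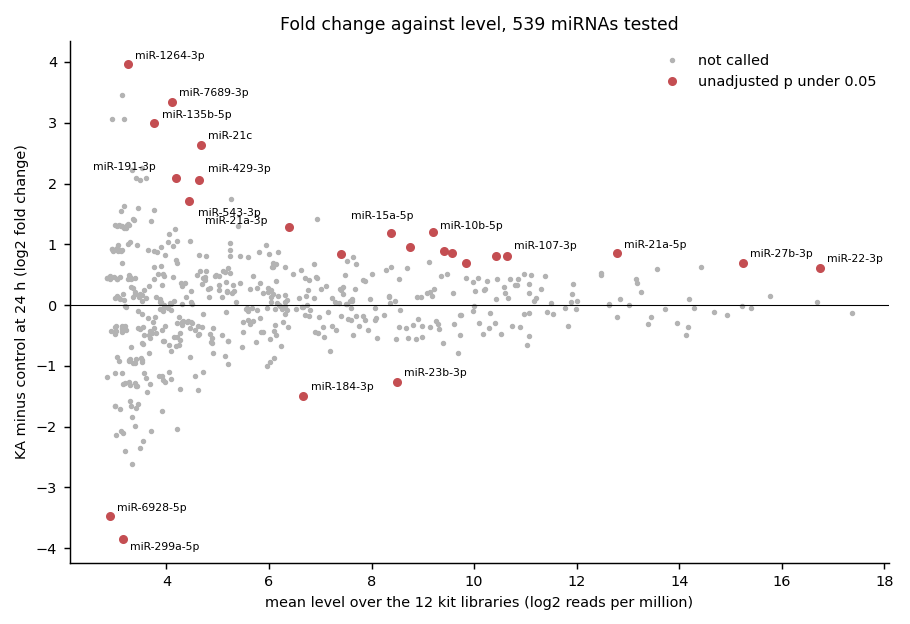
Fitted log2 fold change after KA at 24 h against the mean level (log2 CPM over the 12 kit libraries) of the miRNAs tested, with the 24 at an unadjusted p under 0.05 in red and 18 of them named. The 9 called on fewer than 60 reads sit at the left with the widest fold changes, and fitted values of miRNAs with 0 reads in a group depend on the prior count.

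Other arms and seed relatives of the called miRNAs were compared in sign. Of 12 other arms of called miRNAs that were tested and not called, 5 had the sign of the called arm, with a median log2 fold change of -0.03 in the called direction. Of 13 miRNAs with the same seed, 8 had the same sign (median 0.27). In all miRNAs 53.2% were above 0.

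Lists of miRNAs known from the brain are given by their counts, beside 4.45% called of all miRNAs. The lists are short, and nothing is read from these shares. For neuron-enriched miRNAs, miR-9-3p was called of 17 tested (median log2 fold change -0.02, against 0.05 for all miRNAs), and miR-124-3p was at 4468 ± 1170 CPM in controls and 6269 ± 828 after KA, with overlap. Of 15 miRNAs linked to activity or seizures, miR-22-3p was higher and miR-184-3p lower (median 0.22). The activity-induced miR-132-3p was at 1187 ± 156 CPM in controls and 1557 ± 93.8 after KA, above the controls in all 3 KA libraries (log2 fold change 0.39 ± 0.30, not called). None of 5 inflammation and microglia miRNAs was called (median -0.34). miR-146a-5p was at 558, 1506 and 1153 CPM in controls and 598, 879 and 1033 in KA libraries, with overlap (log2 fold change -0.35 ± 0.45, adjusted p = 0.954, edgeR). miR-146b-5p was at 4068 ± 2382 and 3206 ± 1167 CPM, and miR-223-3p, a myeloid miRNA, at 19.7 ± 25.9 and 8.17 ± 6.19.

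Of 5 oligodendrocyte, 2 endothelial, 3 mural cell and 5 red blood cell miRNAs none was called, with medians of 0.13, 0.17, 0.09 and 1.29. The red blood cell median came from 4 members under 60 CPM in every library, of which miR-144-3p was at 7.80 ± 10.6 and 31.0 ± 24.1 CPM. Of 8 choroid plexus miRNAs, miR-1264-3p was called on its 6 reads, and the abundant miR-204-5p was at 1862 ± 678.5 and 1462 ± 922 CPM. In the miR-34 and miR-449 families none of 6 was called. Their main member miR-34c-5p was at 2214 ± 479 CPM in controls and 1404 ± 256 after KA with all KA libraries below the controls, and did not pass (log2 fold change -0.66 ± 0.32, adjusted p = 0.916, edgeR).

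Among family lists, 10 of 13 miRNAs of the miR-10, miR-99/100 and miR-125 families had a log2 fold change above 0 (median 0.35), of which miR-10b-5p was called. Their summed level was 13610 to 14580 CPM in controls and 18080 to 19440 in KA libraries. miR-99b-5p (4934 ± 202 and 7087 ± 1426 CPM) and miR-100-5p (1795 ± 52.7 and 2539 ± 88.2 CPM) did not overlap between groups and were not called. With scaling to the reference miRNAs, 6 of the 13 were above 0. In the group of miR-15a, miR-16 and miR-107 relatives 2 of 14 were called, both higher (median 0.36), beside 3.71% called higher of all miRNAs. One of them, miR-107-3p, was not called when summed with miR-103-3p of the same group. In the miR-23, miR-24, miR-27 and miR-26 list 1 of 10 was higher and 1 lower (median 0.26), and the summed level was 69170 to 76910 CPM in controls and 84020 to 89250 after KA. The rise of that sum lay in miR-27b-3p, at 24760 ± 9376 and 40240 ± 10660 CPM with overlap. The most abundant member, miR-26a-5p, was at 43240 ± 6563 and 41580 ± 11170 CPM.

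The miR-30 and miR-181 families had medians below 0, -0.26 for 11 miRNAs and -0.24 for 8, without a call. miR-30d-5p was at 12090 ± 1669 CPM in controls and 9752 ± 2078 after KA, and miR-30a-5p at 36960 ± 2974 and 36660 ± 5054. In the let-7 list, let-7c-2-3p was the only one of 18 called (median 0.02), and let-7f-5p, the most abundant, was at 52730 ± 13240 and 58190 ± 8758 CPM. No member of the miR-29 (median 0.35, 7 tested) or miR-17/92 lists (-0.10, 10 tested) was called. In the imprinted cluster, 3 of 54 miRNAs of the group from miR-379 to miR-410 were higher and 1 lower (median 0.01), and none of 14 of the Rtl1-antisense group was called (median 0.03).

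Beside the kit difference at 24 h, that of UC EEFs at 24 h and that of kit EEFs at 2 weeks are given for the same miRNAs. In these comparisons 16 miRNAs each were called at the unadjusted threshold (3.6% with UC, 2.97% at 2 weeks), with 2 and 1 left after adjustment. miR-21a-5p was higher in all 3, with log2 fold changes of 0.85 ± 0.30 (kit, 24 h), 1.46 ± 0.26 (UC, 24 h, adjusted p = 0.000363, edgeR) and 1.48 ± 0.30 (kit, 2 weeks, adjusted p = 0.0279). For miR-21a-3p they were 1.28 ± 0.47, 2.22 ± 0.37 (adjusted p = 0.000247, edgeR) and 0.79 ± 0.49. For miR-107-3p they were 0.80 ± 0.31, 1.04 ± 0.30 (adjusted p = 0.118, edgeR) and 0.02 ± 0.31. miR-15a-5p was at 0.42 ± 0.53 with UC and -0.03 ± 0.32 at 2 weeks, and miR-184-3p at -0.73 ± 0.40 and 0.05 ± 0.50. miR-22-3p, the most abundant of those called, was at 0.02 ± 0.24 with UC and 0.32 ± 0.27 at 2 weeks. Of the 24 called with the kit at 24 h, 18 were tested with UC, where 14 had the same sign and 4 passed (miR-21a-5p, miR-21a-3p, miR-107-3p and miR-21c). At 2 weeks 17 of 24 had the same sign and 3 passed (miR-21a-5p, miR-10b-5p and miR-21c). Over all miRNAs tested in both, the log2 fold changes correlated weakly, at a Pearson r of 0.137 between kit and UC at 24 h. Between 24 h and 2 weeks with the kit r was 0.028. With at least 60 reads these values were 0.258 and 0.216.

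**Figure D5:**
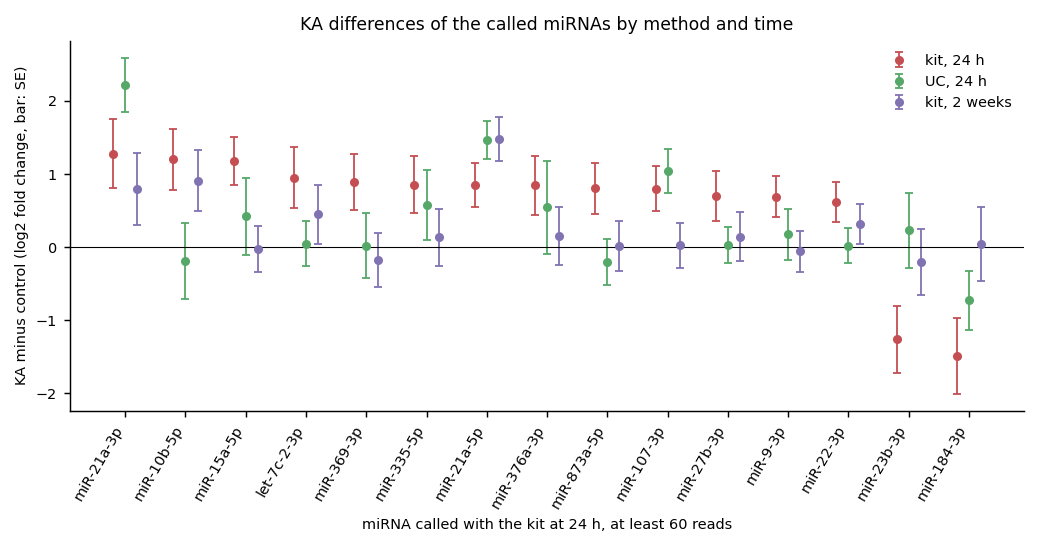
Log2 fold change of KA against control (bar, SE) for the 15 miRNAs called with the kit at 24 h on at least 60 reads, in kit EEFs at 24 h (red), UC EEFs at 24 h (green) and kit EEFs at 2 weeks (purple). miR-21a-5p was above 0 in all 3 comparisons, and miR-22-3p was at 0.61, 0.02 and 0.32.

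The difference between methods or times was tested as an interaction. Between kit and UC at 24 h, no miRNA passed after adjustment (edgeR, 0%) and 11 (2.69%) passed before it. The lowest p-values were those of miR-361-5p (log2 difference -5.37, adjusted p = 0.677), miR-199b-3p (2.93, adjusted p = 0.677) and miR-92a-1-5p (-4.67, adjusted p = 0.996). For miR-21a-5p the difference was -0.64 and for miR-22-3p 0.57 (adjusted p = 0.996 for both, edgeR). Between 24 h and 2 weeks with the kit, none passed after adjustment (edgeR, 0%) and 13 (2.41%) before it. With a block for the replicate numbers, miR-146a-5p passed (-2.004, adjusted p = 0.0154, edgeR). Without that block the lowest p-value was that of miR-146a-5p (-2.28, adjusted p = 0.864), at -0.35 ± 0.45 at 24 h and 1.93 ± 0.46 at 2 weeks. At 2 weeks KA library 2, the deepest, held 5100 of its reads in a total count of 676726. KA libraries 1 and 3 held 359 and 945 in total counts of 247015 and 251694. The next lowest p-values were those of miR-3473b (-5.42) and miR-7689-3p (3.99). For miR-15a-5p the difference was 1.21 and for miR-184-3p -1.54, both under the unadjusted threshold and not after adjustment.

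Reads often end differently from the annotated miRNA, through trimming, through bases added by terminal transferases or through technical remnants. An added or changed 3′ end was listed for 11.2, 12.5 and 9.51% of the reads in controls 1 to 3 and for 10.4, 9.91 and 9.71% in KA libraries 1 to 3. The groups overlapped, and the difference of -1.05 percentage points was within the spread (exact permutation test, two-sided, p = 0.4, where 0.1 is the smallest that 3 against 3 allows). A single added U was listed for 3.12 ± 0.28% in controls and 2.75 ± 0.07% after KA (n = 3), all KA libraries below the controls (exact permutation p = 0.1, adjusted over 11 end classes 0.44). With each well-covered miRNA weighted equally the groups overlapped, and without the 3 most abundant miRNAs they did not (4.33 ± 0.45% and 3.79 ± 0.05%). A single A was listed for 3.20 ± 0.56% and 2.57 ± 0.39%. Ends of 4 or more bases were listed for 1.87 ± 0.48% of reads in controls and 2.47 ± 0.58% in KA libraries, and 41.1 to 80.4% of them held only A and G before the last base. They were most frequent in KA library 2 (3.10%), KA library 3 (2.37%) and control 1 (2.41%). A changed 5′ end was rare, 0.670 ± 0.062% in controls and 0.667 ± 0.157% after KA.

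Of the 91 miRNAs with at least 100 reads in every library, 10 had shares of added 3′ ends that did not overlap between groups (11%), 4 above and 6 below. Their own share ranged from 0.57% to 87.7% in controls, with a median of 11.2%. The largest difference among the 10 was that of miR-30e-3p, at 21.2 ± 2.22% in controls and 28.8 ± 5.59% after KA, and miR-181b-5p followed with 20.3 ± 2.02% and 27.5 ± 1.10%. Lower shares were found for miR-125b-2-3p (50.2 ± 5.00% and 43.5 ± 1.82%), miR-3099-3p (67.7 ± 5.06% and 61.0 ± 2.63%) and miR-708-3p (12.8 ± 2.34% and 6.32 ± 2.29%). For miR-708-3p a U next to the mature end made up most of it, 11.1 ± 2.06% in controls and 5.05 ± 2.30% after KA. For each of the 91 the exact permutation p was at least 0.1 and the lowest adjusted p was 0.758.

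ADAR enzymes change A to inosine in double-stranded RNA, which is read as G, and a change in the seed can redirect a miRNA. A-to-G changes passed the study's limits on reads and error rate at 8 listed positions in these 6 libraries, of which 7 lie inside the mature miRNA and 3 in a seed. The study also required confident miRNA genes, which was not applied here. No position could pass 0.05 in the exact permutation test between groups, since 0.1 is the smallest p-value that 3 against 3 libraries allow. The mature sequences of the sites in a seed follow with the changed A in capitals.
miR-3099-3p: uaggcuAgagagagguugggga
miR-376b-3p: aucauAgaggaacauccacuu
miR-411-5p: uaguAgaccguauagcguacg
All 3 changed positions follow a U and precede a G. miR-376b-3p at position 6 was changed in 76.3, 85.7 and 72.7% of reads in controls and in 74.7, 78.4 and 79.7% in KA libraries. miR-411-5p at position 5 was changed in 20.6 ± 4.00% and 17.9 ± 2.39%, and miR-3099-3p at position 7 in 81.0 ± 3.59% and 83.6 ± 1.44%. Outside the seed, miR-378a-3p at position 16 was at 44.0 ± 2.91% and 49.6 ± 7.84%, miR-378c at position 16 at 53.3 ± 7.31% and 52.7 ± 8.98%, miR-421-3p at position 14 at 9.12 ± 6.00% and 9.45 ± 2.67%, and miR-2137 at position 16 at 92.1 ± 2.59% and 95.3 ± 4.85%. The level of miR-2137 rested on 8 to 62 reads per library. Its 8 reads in KA library 3 were under the limit of 10 reads but entered the mean. For miR-6236 the listed position lies 1 base before the mature start (8.35 ± 2.97% and 5.83 ± 2.85%). At all 8 positions the groups overlapped, and the exact permutation p-values were between 0.3 and 0.9, so that no difference was detectable with 3 libraries a group. At all 200 listed positions with a RefSeq sequence the reference base was A.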

How the data were processed

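The authors treated EEFs with RNase A, sequenced small RNA on an Illumina MiSeq, trimmed the reads and assigned them to hairpins with Chimira. Per the file headers the deposited values are raw counts of reads per mature miRNA, and counts of reads per changed end or base. How reads that match several hairpins were assigned is not given in the sources used here. Totals from both tables were equal in 3267 of 3267 comparisons, once repeated entries (3183 reads) were left out. The total count per library was 154884 to 389402 at 24 h with the kit, so that 1 read is worth 2.57 to 6.46 CPM.

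The 6 libraries were compared in a fit of all 12 kit libraries, 4 groups and no replicate block, with edgeR 4.0.16 in R 4.3.3 (TMM, glmQLFit, glmQLFTest, Benjamini-Hochberg adjustment over all miRNAs tested). The call was an unadjusted p-value under 0.05, the threshold of the study. The common biological coefficient of variation was 0.329. Interactions used all 24 libraries or the 12 kit libraries. limma 3.58.1 (limma-voom), DESeq2 1.42.0, other scalings, filters, thinning, the replicate block and leaving out each library were alternatives. Fits of unaltered reads, of reads without long 3′ ends and of summed near-identical miRNAs were added after seeing the data. The scripts were tested on simulated data.

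A-to-G sites needed at least 10 reads, an adjusted binomial p under 0.05 against an error rate of 0.01 within a library, and 2 libraries of a group. Shares were compared with exact permutation tests (scipy). Named miRNAs were all those called, the references, miR-146a-5p, the 10 most abundant, relatives of those called, up to 4 of the most abundant of each list, the 5 largest non-overlapping differences in added 3′ ends and the 3 lowest p-values of each interaction. The members, lists and comparisons were chosen with earlier results of these data known. Intervals cover counting error only.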

Additional observations from a re-analysis of the deposited data

How the results depend on the processing

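Of 20 alternative fits, none gave a miRNA past an adjusted p-value of 0.05 for KA against control at 24 h. The 24 unadjusted calls became 44 with scaling to the reference miRNAs, 14 with at least 10 reads in 3 of 6 libraries and 12 without control replicate 2, with 8 of the 24 among those 12. Leaving out each library in turn gave between 12 and 35 calls, and 4 miRNAs (miR-15a-5p, miR-184-3p, miR-21c and miR-7689-3p) were called in all 6 such fits. Of these, miR-21c rested on 38 reads, none with the annotated end, and miR-7689-3p on 18 KA reads and 1 control read. No called miRNA turned its sign. miR-92b-3p, a reference itself, went to -0.11 under the scaling that uses it. DESeq2 called 17, limma-voom 28 and unaltered reads 28 of 460, and outside the reference scaling 57.1 to 87.5% of the calls were higher after KA. The causes were not tested.

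Deviations of same-numbered libraries correlated at 0.0161, -0.248 and 0.1. The second principal component (22.8% of the variance) ordered both groups by replicate number. Controls 1 to 3 lay at 6.02, -1.01 and -4.44 on it, and KA libraries 1 to 3 at 8.74, -1.60 and -7.72. These values do not decide whether the replicate numbers pair the libraries. With the replicate block 30 miRNAs were called, 23 of them among the 24, and 0 after adjustment. In the interaction between 24 h and 2 weeks the replicate block gave 1 miRNA after adjustment, miR-146a-5p (-2.004, adjusted p = 0.0154), and between kit and UC 0. For the share of added 3′ ends the difference within pairs was -1.05 percentage points, and for 5′ ends it was -0.0029. For A-to-G levels 0 sites passed with the replicate block, which was fixed in advance because 3 pairs cannot reach 0.05. Leaving out each library moved the difference in added 3′ ends between -1.82 and -0.35 points, and no exact test of 3 against 3 can reach 0.05. At this depth 120 of the miRNAs tested had fewer than 10 reads in all.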
